A study of Homo sapiens with 8 samples.

Results

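The *ID* genes and the feedback genes of bone morphogenetic protein (BMP) signalling were followed across 8 RNA-seq libraries of HCT-116 cells, an established human colorectal carcinoma line. The 9 genes were taken by their symbols from the 20030 rows listed in each library. They are *ID1*, *ID2*, *ID3* and *ID4*, the inhibitory SMADs *SMAD6* and *SMAD7*, the ligands *BMP2* and *BMP4*, and the pseudoreceptor *BAMBI*. *ID3* was selected on its measured values, which were above the control in every knockdown, so that its differences from the control are given as a description and were not tested.

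The cells were transfected transiently with siRNA. A negative control siRNA (siNC) was used in 2 libraries, siRNA against *HHEX*, a homeodomain transcription factor, in 3 (siHHEX), siRNA against *YAP1* and *WWTR1*, the genes of the Hippo pathway coactivators YAP and TAZ, in 2 (siYAP/TAZ), and siRNA against *TEAD1*, *TEAD2*, *TEAD3* and *TEAD4*, the DNA-binding partners of YAP and TAZ, in 1 (siTEAD1/2/3/4). The siTEAD1/2/3/4 mixture held 1 siRNA against *TEAD1*, *TEAD3* and *TEAD4* together and another against *TEAD2*. By the methods of the study each siHHEX replicate and each siYAP/TAZ replicate carried its own siRNA, so the spread within these groups holds both the difference between siRNAs and that between samples. The labels do not say whether the 2 siNC libraries came from separate cultures, so their spread may be technical. All differences from siNC share the same 2 control libraries. No untransfected cells and no cells with BMP added are among the samples.

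Values are in FPKM, the fragments of a gene for its length and for the size of the library, which can be compared between genes. The sum over all genes was lowest in siYAP/TAZ 1, at 331663 FPKM, and highest in siHHEX 3, at 383423 FPKM. Read counts were not used here. The spacing of the lowest values placed the relative depth of the other libraries between 0.948 times that of siNC 1, in siTEAD1/2/3/4, and 1.06 times, in siHHEX 3. This is a rough estimate, as between 31.4% and 38.5% of the low genes compared lay within 10% of it. It was taken only from genes with close values in both libraries compared, so it could not have shown a large difference in depth. Of the 9 genes, 6 reached at least 1 FPKM in at least 2 libraries and were among the 10677 genes tested. *ID1*, *ID2*, *ID3*, *BMP4* and *BAMBI* did so in all 8 libraries and *SMAD7* in 6, while *ID4*, *SMAD6* and *BMP2* were not tested.

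The targeted genes were checked first. *HHEX* was at 8.60 and 9.06 FPKM in siNC and at 3.25, 3.54 and 1.85 FPKM in siHHEX 1, 2 and 3. In siYAP/TAZ 1 and 2, *YAP1* was at 6.90 and 8.39 FPKM against 20.2 and 19.7 FPKM in siNC, and *WWTR1* at 2.64 and 2.58 FPKM against 6.80 and 6.72 FPKM. The log2 fold change of *WWTR1* in siYAP/TAZ was -1.1 (adjusted p = 0.0156, limma). That of *YAP1* was -1.28 and did not pass (adjusted p = 0.0681, limma), with 1 estimate of spread shared by all groups. *YAP1* was also low in siHHEX 1 and 3, at 5.77 and 6.93 FPKM, but at 17.4 FPKM in siHHEX 2, and *HHEX* was at 4.80 and 7.12 FPKM in siYAP/TAZ 1 and 2. In siTEAD1/2/3/4, *TEAD4* was at 5.56 FPKM and *TEAD1* at 9.02 FPKM, below both siNC libraries, and *TEAD2* at 2.73 FPKM. The *TEAD* genes also differed in the other knockdowns. *TEAD1*, at 18.3 and 19.0 FPKM in siNC, was at 6.99, 10.2 and 5.30 FPKM in siHHEX 1, 2 and 3 (log2 fold change -1.25, adjusted p = 0.00641, limma), lower in siHHEX 1 and 3 than in siTEAD1/2/3/4. *TEAD2* was higher in siHHEX (0.78, adjusted p = 0.00709, limma), though not past the threshold once trends on GC and length were taken out, as described below (0.47, adjusted p = 0.0734), and *TEAD4* was lower in siYAP/TAZ (-0.63, adjusted p = 0.0250). *TEAD3*, at 9.08 FPKM, was above its siNC values of 7.36 and 6.99 FPKM, so this library went against its label for that gene, and siTEAD1/2/3/4 is used here as the name it was given.

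The cell type was also checked. *EPCAM*, an epithelial surface protein, lay between 116 and 174 FPKM in all libraries. *KRT8*, a keratin of simple epithelia, was the most abundant of 9 epithelial and colorectal markers throughout. It was at 1590 and 1710 FPKM in siNC but 898 and 897 FPKM in siYAP/TAZ. The sum of these markers, mostly keratins, was 3410 and 3560 FPKM in siNC and 2110 and 2030 FPKM in siYAP/TAZ. *KRT18*, *KRT19* and *EPCAM* were also below siNC in both siYAP/TAZ libraries. *CLDN4* went the other way, at 40.5 and 45.5 FPKM in siNC and 80.7 and 60.2 FPKM in siYAP/TAZ. *CDH1* was at 9.16 and 9.52 FPKM in siNC and at 15.7 and 8.76 FPKM in siYAP/TAZ. *CDX1* and *LGR5*, genes of differentiated and stem-like intestinal cells, were listed at 0 in every library.

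Markers of other cell types were low. Of 6 fibroblast markers the sum was 0.977 and 0.821 FPKM in siNC, 0.879, 0.657 and 1.95 FPKM in siHHEX 1, 2 and 3, 1.27 and 2.77 FPKM in siYAP/TAZ 1 and 2, and 1.63 FPKM in siTEAD1/2/3/4, most of it *COL1A1*. All 6 were above 0 in siHHEX 3 and in both siYAP/TAZ libraries. Of 4 leukocyte markers the sum was 3.78 and 3.94 FPKM in siNC, 3.52, 4.02 and 5.35 FPKM in siHHEX, 7.35 and 5.42 FPKM in siYAP/TAZ and 5.01 FPKM in siTEAD1/2/3/4, nearly all *CD68*, which many other cells express, while the leukocyte gene *PTPRC* was at most at 0.101 FPKM. The 4 endothelial markers summed to at most 0.221 FPKM, in siYAP/TAZ 2. The part of these markers in the results was not tested. In RNA from whole cultures, fewer cells of a kind and less RNA per cell cannot be told apart.

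BMP ligands bind type I and type II serine/threonine kinase receptors, which phosphorylate SMAD1, SMAD5 and SMAD9. These enter the nucleus with SMAD4 and activate transcription, and the *ID* genes are among their best known direct targets. ID proteins are helix-loop-helix proteins without a DNA-binding region. They pair with E proteins such as TCF3 and TCF12 and keep these from binding DNA, and in epithelia they are known for holding back differentiation. SMAD6 and SMAD7 are themselves induced by BMP or TGF-β signals and shut the receptors off, and BAMBI is a receptor-like protein without a kinase that dampens the pathway.

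In siNC, *BMP4* and *ID1* were the most abundant of the 9 genes, with 110 ± 2.98 FPKM and 86.2 ± 3.44 FPKM (mean ± SD, n = 2), and *ID4* was the least abundant, with 0.0620 ± 0.0666 FPKM. Between them stood *ID2* with 55.6 ± 2.59 FPKM, *ID3* with 31.2 ± 3.25 FPKM, *BAMBI* with 10.3 ± 1.03 FPKM, *SMAD7* with 2.30 ± 0.310 FPKM, *BMP2* with 0.313 ± 0.0458 FPKM and *SMAD6* with 0.222 ± 0.00145 FPKM. No neighbours in this order overlapped between their siNC libraries. The order changed at the top with the knockdowns. In siYAP/TAZ *ID1* stood first with 196 ± 2.65 FPKM, ahead of *BMP4* with 142 ± 11.7 FPKM and *ID3* with 92.8 ± 35.3 FPKM (n = 2 each). In siHHEX, *ID1* with 151 ± 12.5 FPKM and *BMP4* with 127 ± 21.7 FPKM (n = 3 each) overlapped in their libraries. *ID3* stood above *ID2* in every knockdown library and below it in both siNC libraries.

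**Figure D1:**
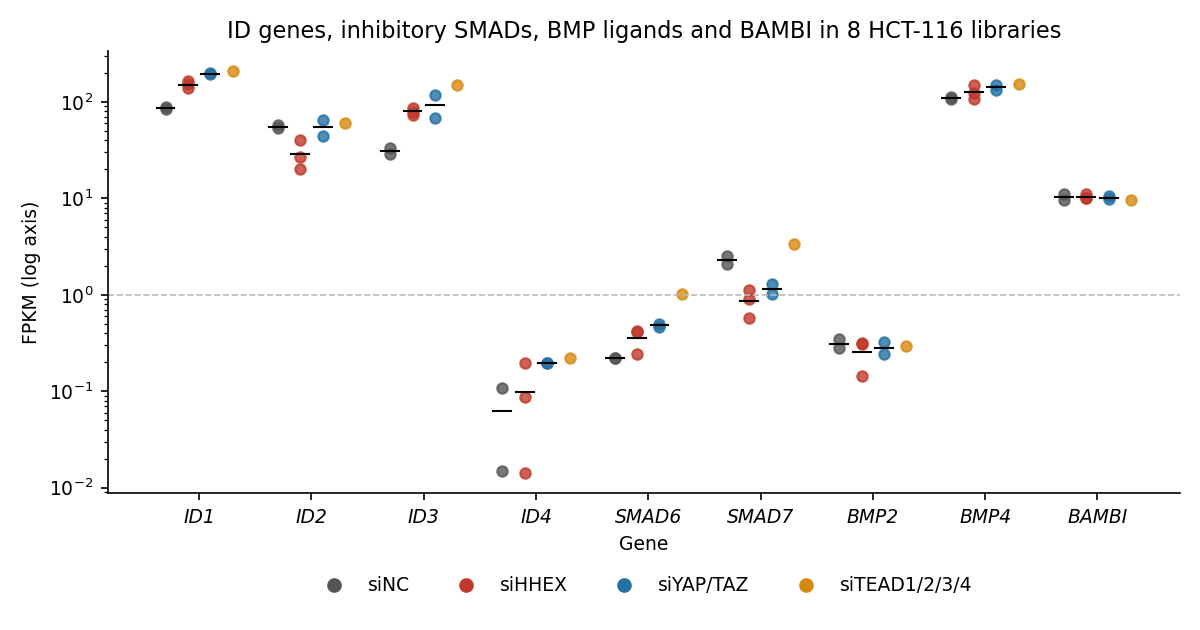
FPKM (log axis) of the 9 genes in each library, colored by group. Points are libraries, black bars are group means where a group has more than 1 library, and the dashed line marks 1 FPKM. *ID1*, *ID3*, *ID4*, *SMAD6*, *SMAD7* and *BMP4* have their highest point in siTEAD1/2/3/4, and *ID2* has its lowest in siHHEX.

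The stretches just before the start sites of *ID1*, *ID2* and *ID3* are shown because these members of one family did not all move alike, with *ID1* and *ID3* above siNC in every knockdown library and *ID2* below it in siHHEX. The sequences are RefSeq promoter windows of GRCh38.p14, the 250 bases before the start, written 5′ to 3′ on the strand of the gene. The start is that of RefSeq, while gene spans given below are those of GENCODE, and the *ID2* window lies within the GENCODE span of that gene. Capitals mark every match, on either strand, to 6 motifs that were searched. The first was GGCGCC, a word bound by BMP SMADs. The short SMAD word searched was CAGAC, and the SMAD palindrome was GTCTAGAC. The core of the TEAD site was searched as GGAATG. The CCAAT box and the TATA box were searched as CCAAT and as the word TATAAA, and none of the 6 contains another. *ID1* (chr20:31605039-31605288, plus strand), *ID2* (chr2:8681806-8682055, plus strand) and *ID3* (chr1:23559502-23559751, minus strand) read as follows.
ID1: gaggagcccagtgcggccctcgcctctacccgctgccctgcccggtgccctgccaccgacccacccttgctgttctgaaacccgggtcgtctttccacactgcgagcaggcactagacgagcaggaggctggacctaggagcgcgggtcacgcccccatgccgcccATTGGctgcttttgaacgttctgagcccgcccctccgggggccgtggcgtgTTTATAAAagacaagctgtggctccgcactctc
ID2: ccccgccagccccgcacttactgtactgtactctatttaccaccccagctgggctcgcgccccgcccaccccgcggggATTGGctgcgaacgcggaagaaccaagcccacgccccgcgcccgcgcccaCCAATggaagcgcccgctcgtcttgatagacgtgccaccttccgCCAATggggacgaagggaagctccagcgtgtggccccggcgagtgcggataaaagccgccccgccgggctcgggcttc
ID3: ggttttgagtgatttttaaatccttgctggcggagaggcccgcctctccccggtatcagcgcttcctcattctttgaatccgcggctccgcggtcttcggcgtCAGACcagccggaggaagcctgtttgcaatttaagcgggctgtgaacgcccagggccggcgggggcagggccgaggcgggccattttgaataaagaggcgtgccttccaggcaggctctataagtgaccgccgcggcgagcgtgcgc
In this window *ID1* held 2 overlapping matches to TATAAA, 1 on each strand, between 33 and 26 bases before the start, and 1 CCAAT. *ID2* held 3 CCAAT and none of the others, and *ID3* held 1 CAGAC, at 147 to 143 bases before the start. Of 35116 RefSeq windows of this length, 10.7% held TATAAA, 32.0% CCAAT and 38.0% CAGAC. Among the 8 genes with an entry, all but *BMP2*, the TEAD word GGAATG was found for *ID4* alone, against 11.9% of all windows. GGCGCC, found in 16.4%, was in those of *BAMBI* and 1 of 3 of *BMP4*, and GTCTAGAC, found in 0.182%, was in that of *SMAD6*. CAGAC was also in the windows of *ID4* and *BAMBI* and in 2 of 3 of both *SMAD7* and *BMP4*, and TATAAA also in those of *ID4* and in 1 of 3 of *SMAD7*. A match of letters is a description and does not show binding. Sequence outside these 250 bases was not searched, so the lack of a word here does not show that the gene has no such site.

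*ID1*, on chromosome 20 of GRCh38 from 31605283 to 31606515, was raised in both replicated knockdowns and was higher in the single TEAD library. It was at 88.6 and 83.8 FPKM in siNC, at 153, 138 and 163 FPKM in siHHEX 1, 2 and 3, at 198 and 195 FPKM in siYAP/TAZ 1 and 2, and at 210 FPKM in siTEAD1/2/3/4. Every knockdown library was above both siNC libraries, and both siYAP/TAZ libraries were above all 3 siHHEX libraries. On the scale of log2(FPKM + 1), which understates the change of low genes, the fold change was 1.18 in siYAP/TAZ (SE 0.115, 2.27-fold, adjusted p = 0.00209, limma with Benjamini-Hochberg adjustment over all tested genes). In siHHEX it was 0.80 (SE 0.105, 1.74-fold, adjusted p = 0.00384, limma). Among the 10677 tested genes *ID1* ranked 82nd from the highest change in siYAP/TAZ, 260th in siHHEX and 15th in siTEAD1/2/3/4, where its difference from the siNC mean was 1.28 with no replicate. The rise in siYAP/TAZ stayed past the threshold in all 15 alternatives that were run, with a log2 fold change from 1.07 to 1.22. The rise in siHHEX did not pass without siNC 1 or without siNC 2, where it was about as large, at 0.842 and 0.761. With libraries corrected for trends on GC content and length it was 0.35 (adjusted p = 0.0421, limma), and with the replicate number as a block in that fit 0.36, which did not pass (adjusted p = 0.108).

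*ID2*, on chromosome 2 from 8678845 to 8684461, went the other way from *ID1* in siHHEX and showed no change in siYAP/TAZ that passed the test. It was at 57.4 and 53.7 FPKM in siNC and at 26.6, 40.7 and 20.0 FPKM in siHHEX 1, 2 and 3, so that all siHHEX libraries were below siNC and differed among themselves by more than the siNC libraries did. In siYAP/TAZ 1 and 2 it was at 44.5 and 65.2 FPKM, on either side of siNC, and in siTEAD1/2/3/4 at 60.3 FPKM. It fell by 0.97 on the log2 scale in siHHEX (SE 0.261, adjusted p = 0.0231, limma), while the siYAP/TAZ fold change was -0.04 (95% confidence interval -0.68 to 0.60, adjusted p = 0.941, limma). The fall in siHHEX did not pass without siNC 1, siNC 2 or siHHEX 1, where it was about as large, at -0.92, -1.01 and -0.94 (adjusted p = 0.145, 0.104 and 0.0655, limma), nor without the filter on low values (0.0956). GENCODE places *ID2-AS1* on the opposite strand, from 8666636 to 8681864, overlapping the 5′ part of its *ID2* span. *ID2-AS1* ends before the RefSeq start of *ID2* used above. Whether strand was used in counting is not given in the sources used here, so reads of these genes cannot be told apart where they overlap. The same holds for *ID4* with *LNC-LBCS* and for *BMP4* with an unnamed non-coding gene, both on the opposite strand. *SMAD6* overlaps another unnamed non-coding gene on its own strand, which counting by strand would not separate.

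*ID3*, on chromosome 1 from 23557926 to 23559501, was chosen for its higher values in the knockdowns, and these are given without a test. It was at 33.5 and 28.9 FPKM in siNC, at 87.3, 73.7 and 78.0 FPKM in siHHEX 1, 2 and 3, at 67.9 and 118 FPKM in siYAP/TAZ 1 and 2, and at 149 FPKM in siTEAD1/2/3/4. The siHHEX libraries lay close together, and siYAP/TAZ 1 was below all of them while siYAP/TAZ 2 was above all of them. The log2 fold change was 1.32 in siHHEX and 1.49 in siYAP/TAZ, and the difference of siTEAD1/2/3/4 from the siNC mean was 2.23. In that library no tested gene had a larger difference upwards, and *ID3* ranked 5th in siHHEX and 30th in siYAP/TAZ. The siYAP/TAZ libraries stood apart, at 1.10 and 1.88 above the siNC mean on the log2 scale.

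*ID4* was low in every library. It was at 0.109 and 0.0149 FPKM in siNC, at 0.0142, 0.0871 and 0.195 FPKM in siHHEX 1, 2 and 3, at 0.196 and 0.195 FPKM in siYAP/TAZ 1 and 2, and at 0.221 FPKM in siTEAD1/2/3/4. The siHHEX libraries spanned both siNC values, and no fold change is given at these levels.

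**Figure D2:**
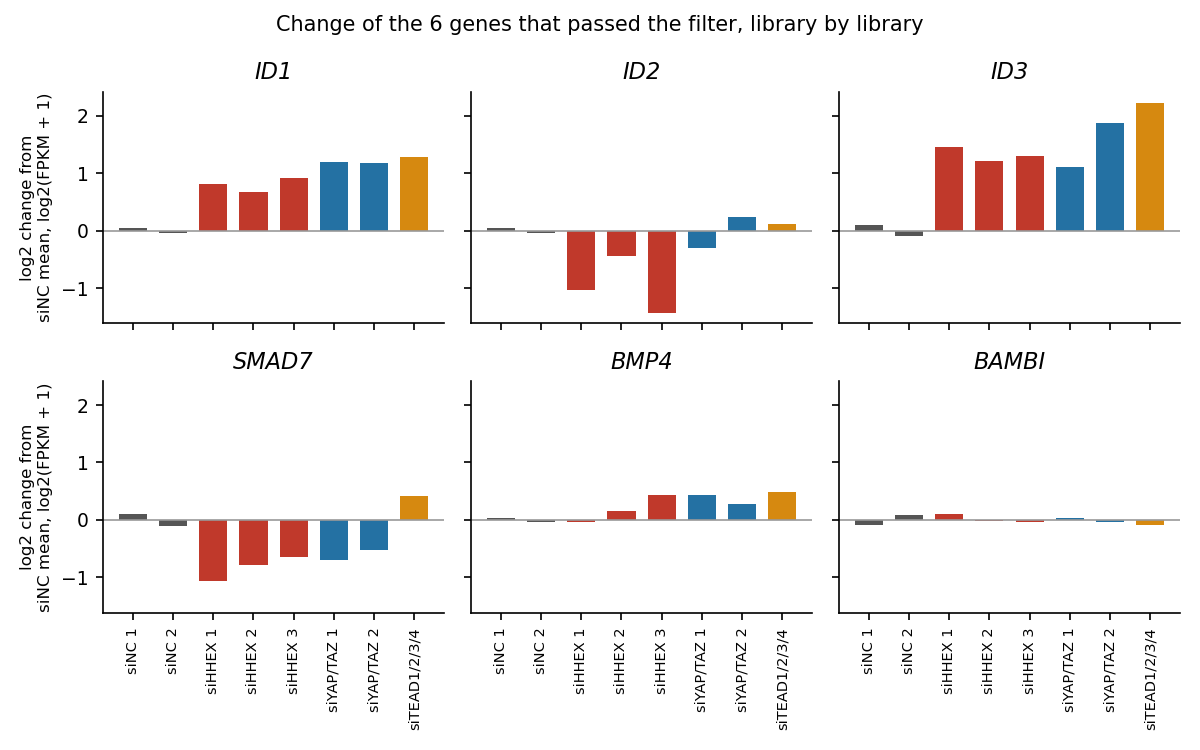
Log2 change of each library from the siNC mean, on log2(FPKM + 1), for the 6 genes that passed the filter. Bars are single libraries and are colored by group. *ID1* and *ID3* stand above 0 in all 6 knockdown libraries, *ID2* stands below 0 in the siHHEX libraries, and *SMAD7* stands below 0 in siHHEX and siYAP/TAZ and above it in siTEAD1/2/3/4.

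Among the inhibitors, *SMAD7*, which recruits ubiquitin ligases to the receptors, fell in siHHEX. It was at 2.52 and 2.08 FPKM in siNC, at 0.576, 0.90 and 1.12 FPKM in siHHEX 1, 2 and 3, at 1.02 and 1.30 FPKM in siYAP/TAZ 1 and 2, and at 3.38 FPKM in siTEAD1/2/3/4. All siHHEX and siYAP/TAZ libraries were below siNC, and the siTEAD1/2/3/4 library was above it. The log2 fold change was -0.83 in siHHEX (SE 0.156, adjusted p = 0.00834, limma). At this low level it depended on the pseudocount, and with 0.1 and 0.01 in place of 1 it was -1.35 and -1.45 in siHHEX, which passed, and -0.93 and -0.98 in siYAP/TAZ, which did not. In siYAP/TAZ it was -0.61 (SE 0.171), which did not pass the adjustment (adjusted p = 0.0581, limma), but did without siHHEX 3, which shares the estimate of spread (adjusted p = 0.0426), and when siNC and siYAP/TAZ alone were fitted (adjusted p = 0.0384). The siHHEX call was lost without siNC 1 or siNC 2, where the value was about as large, at -0.735 and -0.927. The difference of siTEAD1/2/3/4 from the siNC mean was 0.41 on the log2 scale, while the siNC libraries lay 0.10 to either side of that mean, and it has no replicate.

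*SMAD6*, the inhibitory SMAD that acts mainly on BMP receptors, was lower than *SMAD7* in every library. It was at 0.223 and 0.221 FPKM in siNC, at 0.243, 0.415 and 0.422 FPKM in siHHEX 1, 2 and 3, at 0.496 and 0.467 FPKM in siYAP/TAZ 1 and 2, and at 1.03 FPKM in siTEAD1/2/3/4. Every knockdown library was above both siNC libraries, and siTEAD1/2/3/4, the only library at 1 FPKM, was highest. Since the gene did not pass the filter it was not tested. *BAMBI* ran nearly level, from 9.54 FPKM in siNC 1 to 11.2 FPKM in siHHEX 1, with 9.59 FPKM in siTEAD1/2/3/4. The groups overlapped, and the log2 fold change was 0.02 in siHHEX (95% confidence interval -0.25 to 0.30) and -0.01 in siYAP/TAZ (-0.31 to 0.30), with adjusted p from limma of 0.892 and 0.984.

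Of the ligands, *BMP4* was abundant and *BMP2* was not. *BMP4* was at 113 and 108 FPKM in siNC, at 107, 124 and 150 FPKM in siHHEX 1, 2 and 3, at 151 and 134 FPKM in siYAP/TAZ 1 and 2, and at 154 FPKM in siTEAD1/2/3/4. The siHHEX libraries overlapped siNC, and the siYAP/TAZ libraries were above it. Neither difference passed the test, with a log2 fold change of 0.19 in siHHEX (SE 0.142, adjusted p = 0.317, limma) and 0.36 in siYAP/TAZ (SE 0.155, adjusted p = 0.171, limma). The latter passed when siNC and siYAP/TAZ alone were fitted (adjusted p = 0.0465). *BMP2* lay between 0.145 FPKM in siHHEX 1 and 0.345 FPKM in siNC 2, with overlapping groups.

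Counted together, 3 of the 5 tested members other than *ID3* passed the test in siHHEX, *ID1* upwards and *ID2* and *SMAD7* downwards. Of all tested genes, 32.9% passed in siHHEX, 16.0% upwards and 16.9% downwards. Of the same 5, only *ID1* passed in siYAP/TAZ, upwards, against 8.28% of all tested genes, 6.15% upwards and 2.13% downwards. In siTEAD1/2/3/4, *ID1* alone of these 5 differed from the siNC mean by more than 2-fold, against 0.890% of the tested genes. The siHHEX count of members needed both siNC libraries. Without siNC 1, limma called 19 of all tested genes in siHHEX and 22 in siYAP/TAZ, and without siNC 2 it called 27 and 15. The values themselves stayed about as large with 1 control library left. Without siNC 1 and without siNC 2, *ID1* was at 0.842 and 0.761, *ID2* at -0.921 and -1.015 and *SMAD7* at -0.735 and -0.927 in siHHEX. In siYAP/TAZ *ID1* was at 1.22 and 1.14. Relative to siNC, the median level of the tested genes on the log2 scale was at -0.071 in siHHEX and at 0.105 in siYAP/TAZ. When libraries were set to the same median, the share of called genes that were higher went from 48.7% to 60.5% in siHHEX and from 74.3% to 49.1% in siYAP/TAZ. On that scale *ID1* was at 0.87 and 1.07, *ID2* at -0.90 and -0.15 and *SMAD7* at -0.76 and -0.72 in siHHEX and siYAP/TAZ, and *SMAD7* passed in siYAP/TAZ (adjusted p = 0.0380, limma).

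The siHHEX changes ran with base composition. Across genes, which are not independent replicates, the Spearman coefficient of the log2 change with the GC content of the transcript was 0.679, 0.599 and 0.756 in siHHEX 1, 2 and 3, but 0.0609 and -0.0519 in siYAP/TAZ 1 and 2, and 0.30 in siTEAD1/2/3/4. The 2 siNC libraries, set against their own mean and so mirror images of each other, were at -0.211 and 0.211. The 1035 genes lowest in GC, with a median of 36.9%, had a median siHHEX change of -0.46, and the 1035 highest, with 64.7%, one of 0.41. *ID1* and *ID3*, with 57.9% and 56.7% GC, are on the side that was higher in siHHEX and *ID2*, with 42.5%, on the side that was lower, while *SMAD7*, with 57.0%, moved against the trend. With each library corrected for trends on GC content and length, the siHHEX log2 fold change of *ID1* was 0.35 (adjusted p = 0.0421, limma), that of *ID2* -0.80 (adjusted p = 0.0683) and that of *SMAD7* -1.06 (adjusted p = 0.0110), and *ID3* stood at 0.89 with no test. In siYAP/TAZ the corrected value of *ID1* was 1.09 (adjusted p = 0.000962, limma), that of *SMAD7* -0.70 (adjusted p = 0.0294), and *ID3* stood at 1.40. With the correction 6.78% of genes were called in siHHEX and 11.4% in siYAP/TAZ, of which 52.8% and 46.4% were higher. The correction takes out both trends together, and the parts of GC content and length were not tested apart.

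**Figure D3:**
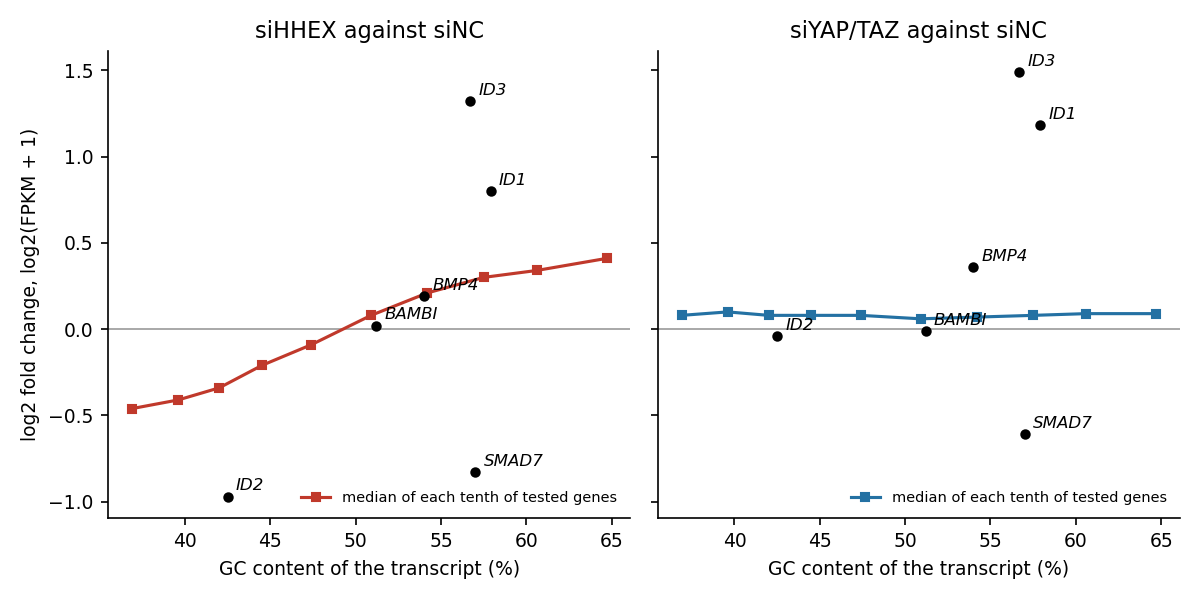
Log2 fold change on log2(FPKM + 1) against the GC content of the transcript (%), in siHHEX (left) and siYAP/TAZ (right). Squares are the medians of 10 groups of tested genes of like size, ordered by GC content, and black points are the 6 tested members. The siHHEX medians climb from -0.46 to 0.41, with *ID1* and *ID3* above the line and *ID2* and *SMAD7* below it, and the siYAP/TAZ medians stay between 0.06 and 0.10.

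siHHEX and siYAP/TAZ were compared directly, which uses no siNC library for the difference. *ID3* was chosen for its high values in both of these groups, so its test here is not independent of that choice. *ID3* did not pass this test, with a log2 fold change of -0.17 for siHHEX against siYAP/TAZ (95% confidence interval -0.63 to 0.29, adjusted p = 0.520, limma). The result turned on the siYAP/TAZ libraries, since without siYAP/TAZ 1 the value was -0.56 and passed (adjusted p = 0.0343), and without siYAP/TAZ 2 it was 0.23 and did not (adjusted p = 0.320). With equal medians it was 0.01. *ID1* was lower in siHHEX than in siYAP/TAZ by a log2 fold change of -0.38 (SE 0.105, adjusted p = 0.0212, limma). The median level differed between these groups by -0.176, and with equal medians the *ID1* value was -0.20 and did not pass (adjusted p = 0.190). It also did not pass without siNC 1, siYAP/TAZ 1 or siYAP/TAZ 2 (adjusted p = 0.05, 0.0807 and 0.0908), and after the GC and length correction it was -0.74 (adjusted p = 0.00866).

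*ID2* was also lower in siHHEX than in siYAP/TAZ, with a log2 fold change of -0.93 (SE 0.261, adjusted p = 0.0223, limma), and no siHHEX library reached the lowest siYAP/TAZ value of 44.5 FPKM. This call was lost without siHHEX 1, siHHEX 3 or siYAP/TAZ 2, where the value was -0.89, -0.69 and -0.66 (adjusted p = 0.0632, 0.0502 and 0.176, limma), without the filter (adjusted p = 0.0866) and with the GC and length correction (-0.68, adjusted p = 0.0941). For *SMAD7*, *BMP4* and *BAMBI* the differences were -0.22 (95% confidence interval -0.57 to 0.13), -0.17 (-0.49 to 0.14) and 0.03 (-0.25 to 0.30), and none passed. In all 2 of the 6 tested members passed, both lower in siHHEX, against 39.3% of all tested genes, 13.5% higher and 25.9% lower. With equal medians the share of called genes that were higher went from 34.2% to 64.4%, and with the GC and length correction to 61.5%. Both member calls needed siYAP/TAZ 2, without which 1 siYAP/TAZ library was left and *ID1* stood at -0.39 and *ID2* at -0.66.

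The values of *ID1* ran with those of *ID3* over the 8 libraries. Pearson's r on log2(FPKM + 1) was 0.920, which ranked *ID1* 25th among 10675 tested genes. The coefficient was 0.623 for *BMP4*, -0.074 for *ID2*, -0.130 for *SMAD7* and -0.271 for *BAMBI*. Among the 5 genes outside the list with the highest coefficients were *ALAD* (0.980), a heme synthesis enzyme, *CROCC* (0.962), a protein of the ciliary rootlet, *TSNARE1* (0.961) and *RNF130* (0.960), a ubiquitin ligase. They spanned less than *ID3*, with *ALAD* from 2.37 to 3.83 FPKM and *CROCC* from 1.47 to 2.26 FPKM against 28.9 to 149 FPKM for *ID3*. These coefficients describe 8 libraries that share 4 conditions, and carry no test.

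**Figure D4:**
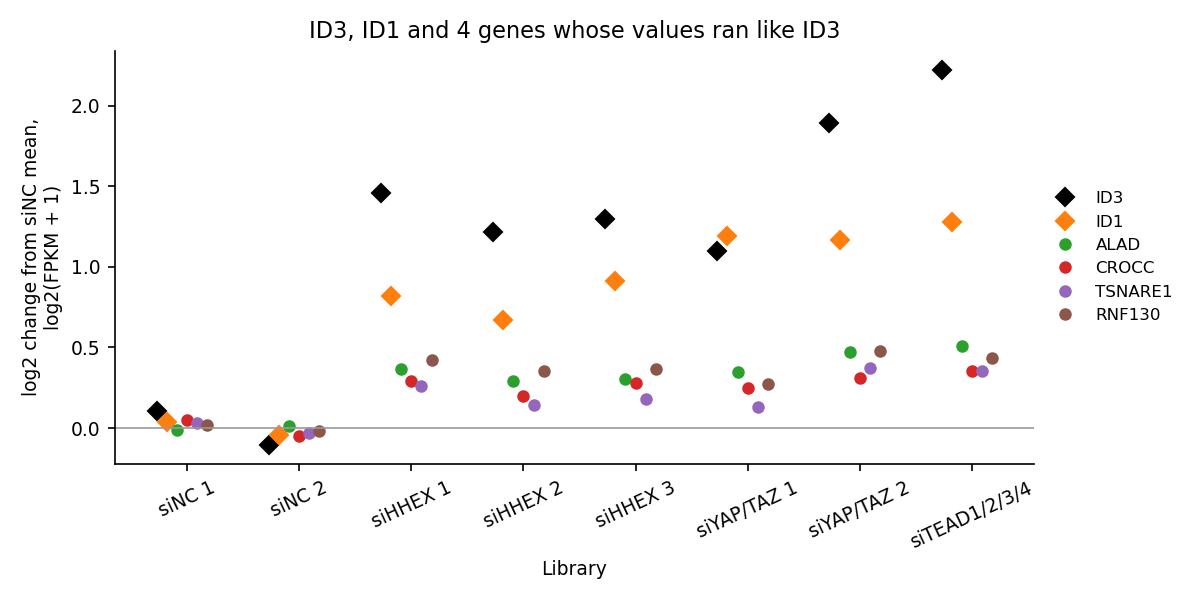
Log2 change of each library from the siNC mean, on log2(FPKM + 1), for *ID3*, *ID1* (diamonds) and 4 of the 5 tested genes outside the list whose values ran most like *ID3* (circles). *ID3* reaches 2.23 in siTEAD1/2/3/4, and the 4 other genes run in the same direction within a narrower range.

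The rest of the pathway was read from lists of 79 genes, of which 40 passed the filter. Of the 40 genes, 2 passed the test upwards and 14 downwards in siHHEX, where 32.9% of all tested genes passed, 16.0% upwards and 16.9% downwards. The 14 include *BMP6* and *SKIL*, which reached 1 FPKM in no siHHEX library. The median log2 fold change of the 40 was -0.32 against -0.01 over all tested genes. With the correction for GC and length 5 were lower and none higher by limma, and 6.78% of all genes in that fit were called, 331 of 10349 downwards. An unadjusted limma p under 0.05 was reached by 10 downwards and 2 upwards. No share of all genes at that criterion is given here, so these counts are not read as an excess. The same holds for such counts in the single lists below. In siYAP/TAZ the test passed 1 upwards and 2 downwards (with the correction 1 and 4, where 11.4% of all genes were called), against 8.28% of all tested genes, with a median of 0.01 against 0.08. In the direct comparison of the knockdowns 1 was higher in siHHEX and 15 were lower, where 39.3% of all tested genes passed, with a median of -0.37 against -0.13. The counts became 3 and 7 with equal medians and 1 and 1 with the correction, under which 8.88% of all genes were called. Counted in either direction without the correction, these calls were near the share of all tested genes in each comparison.

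The siHHEX calls of these genes also needed both siNC libraries. Without siNC 1 or siNC 2 none of the 40 passed in siHHEX by limma, although 13 had an unadjusted p under 0.05 in either case, 12 of them lower. Of all tested genes 26.1% did so without siNC 1 and 28.8% without siNC 2, and 13.3% and 14.8% were lower. When siHHEX 1 was left out, 9 of the 40 and 2109 of all tested genes passed, and *SMAD1*, *SMAD2*, *SMAD4*, *SMAD5*, *BMP6*, *SKIL* and *TCF12* were not among them. Leaving out siHHEX 3 left 11, and 2514 of all tested genes, without *BMP6*, *SMAD1*, *SMAD5*, *TBX3* and *TCF12*, and *TCF12* was also not called without either siYAP/TAZ library. Without siHHEX 2 there were 21 calls, of which 18 were lower, and 4839 among all tested genes. In siYAP/TAZ *TBX3* passed in every such fit, and *SMAD3* did not pass without siNC 1, siNC 2 or siYAP/TAZ 2. *ACVR1B* did not pass without those 3 libraries or without siHHEX 1. Between the knockdowns, leaving out siYAP/TAZ 2 left *BMPR2*, *TBX3* and *TCF12*.

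Ligands beyond the member list were scarce, and 7 of the 12 were listed at 0 in every library. *BMP6*, 1 of 3 that were tested, was at 1.09 and 0.90 FPKM in siNC and at 0.299, 0.623 and 0.236 FPKM in siHHEX (log2 fold change -0.53, adjusted p = 0.0295, limma). It entered the test through siNC 1 and siTEAD1/2/3/4, the only libraries where it reached 1 FPKM, and no siHHEX library did. Its call is therefore listed but not read as a fall. Of 14 extracellular antagonists 12 did not pass the filter. *TWSG1*, which binds BMPs together with chordin, fell by 1.04 on the log2 scale in siHHEX (adjusted p = 0.0159, limma), and did not pass with the GC and length correction (-0.54, adjusted p = 0.102).

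Of 10 receptors and co-receptors, 7 were tested, and 1 passed in siHHEX, against 32.9% of all tested genes, and none in siYAP/TAZ by limma, against 8.28%, where 1 had an unadjusted p under 0.05. *ACVR1*, a type I BMP receptor, was at 2.81 and 2.63 FPKM in siNC and at 1.51, 1.28 and 1.64 FPKM in siHHEX (log2 fold change -0.59, adjusted p = 0.0118, limma), and passed with the GC and length correction as well (-0.58, adjusted p = 0.0291). *BMPR2*, a type II receptor, passed only between the knockdowns, with -0.78 in siHHEX against siYAP/TAZ (adjusted p = 0.00521, limma), and -0.15 with the correction (adjusted p = 0.516). All 3 tested signal transducers were lower in siHHEX, where 16.9% of all tested genes were, *SMAD5* by a log2 fold change of -0.86 (adjusted p = 0.0250, limma), *SMAD4* by -0.55 (0.0237) and *SMAD1* by -0.45 (0.0398). With the GC and length correction they stood at -0.35, -0.14 and -0.17 and none passed by limma, nor had any an unadjusted p under 0.05. In siYAP/TAZ they stood at -0.04, -0.03 and -0.06.

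Among the 9 SMAD ubiquitin ligases and nuclear corepressors, all tested, 2 passed the test downwards in siHHEX, against 16.9% of all tested genes. None passed in siYAP/TAZ by limma, against 8.28%, where 1 had an unadjusted p under 0.05. *SMURF2*, a ligase that SMAD7 brings to the receptors, was at 31.1 and 31.0 FPKM in siNC, at 11.1, 15.4 and 12.5 FPKM in siHHEX, at 18.5 and 23.0 FPKM in siYAP/TAZ and at 18.4 FPKM in siTEAD1/2/3/4. All 6 knockdown libraries were below siNC. Its siHHEX log2 fold change was -1.21 (SE 0.156, adjusted p = 0.00384, limma) and -0.82 with the correction (adjusted p = 0.0148). In siYAP/TAZ it was -0.56 (adjusted p = 0.0707) and passed with the correction (-0.69, adjusted p = 0.0178). *SKIL*, a corepressor of SMADs, fell by 0.58 in siHHEX (adjusted p = 0.0328, limma), and stood at -0.03 with the correction. It too was near the filter, at 1 FPKM or more in siNC 2 and siYAP/TAZ 2 alone. No siHHEX library reached that level, so this call is also not read as a fall. *TGIF1* and *PPM1A* passed only in siHHEX against siYAP/TAZ, at -0.54 and -0.50 (adjusted p = 0.0113 and 0.0266, limma), and neither passed with the correction.

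Of 9 other genes induced by BMP, 4 were tested. *TBX3*, a T-box repressor, was at 5.84 and 5.94 FPKM in siNC, at 7.43, 9.16 and 8.12 FPKM in siHHEX, at 19.2 and 21.7 FPKM in siYAP/TAZ and at 16.0 FPKM in siTEAD1/2/3/4. The knockdown libraries were all above siNC, as for *ID1* and *ID3*, with siYAP/TAZ highest. Its log2 fold change was 1.63 in siYAP/TAZ (SE 0.142, adjusted p = 0.00138, limma) and 0.42 in siHHEX (adjusted p = 0.0363, and with the GC and length correction 0.35, adjusted p = 0.0951), and the difference between the knockdowns also passed (-1.22, adjusted p = 0.00282). *MSX2*, a homeobox target of BMP, was at 31.9 and 24.1 FPKM in siYAP/TAZ and 32.5 FPKM in siTEAD1/2/3/4 against 17.5 and 17.7 FPKM in siNC, but did not pass in siYAP/TAZ (0.63, adjusted p = 0.0750, limma). In siHHEX it overlapped siNC. It was lower in siHHEX than in siYAP/TAZ (-0.52, adjusted p = 0.0436, limma), but not past the threshold with the correction (-0.39, adjusted p = 0.202) or with equal medians (-0.34, adjusted p = 0.158). *RUNX2* passed only between the knockdowns (-0.59, adjusted p = 0.0263, limma), and did not with the correction (-0.16, adjusted p = 0.529) or with equal medians (-0.41, adjusted p = 0.0702).

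In the TGF-β and activin branch, 7 of 12 genes were tested, of which 4 fell in siHHEX, against 16.9% of all tested genes, and 2 in siYAP/TAZ, against 2.13%. The latter were *SMAD3* and the activin receptor *ACVR1B*, which was named after its values were seen (log2 fold change -0.57, adjusted p = 0.0427, limma). *SMAD3*, a transducer of TGF-β, fell in both, from 12.3 and 11.7 FPKM in siNC to 5.22, 5.96 and 5.30 FPKM in siHHEX (log2 fold change -1.0, adjusted p = 0.00387, limma) and to 6.83 and 5.45 FPKM in siYAP/TAZ (-0.87, adjusted p = 0.0137). With the correction these were -1.0 and -0.99 (adjusted p = 0.00485 and 0.00460). Both knockdowns were without overlap below siNC, and the siTEAD1/2/3/4 library lay at 7.89 FPKM. *TGFBR2*, *TGFBR3* and *SMAD2* fell in siHHEX by 0.76, 0.75 and 0.51 (adjusted p = 0.0135, 0.00963 and 0.0217, limma), and with the correction stood at -0.60, -0.41 and -0.18 and none passed (adjusted p = 0.0584, 0.142 and 0.384).

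Of the E proteins that ID proteins bind, *TCF3* and *TCF12* were tested. *TCF3* rose in siHHEX, from 14.0 and 14.2 FPKM in siNC to 19.1, 27.8 and 26.4 FPKM (log2 fold change 0.73, adjusted p = 0.0121, limma), and *TCF12* fell there, from 6.61 and 5.96 FPKM to 4.66, 5.01 and 3.80 FPKM (-0.41, adjusted p = 0.0440). With the correction they were at 0.44 and 0.01 and neither passed (adjusted p = 0.0948 and 0.979). In siYAP/TAZ neither passed, at 0.36 and 0.39.

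**Figure D5:**
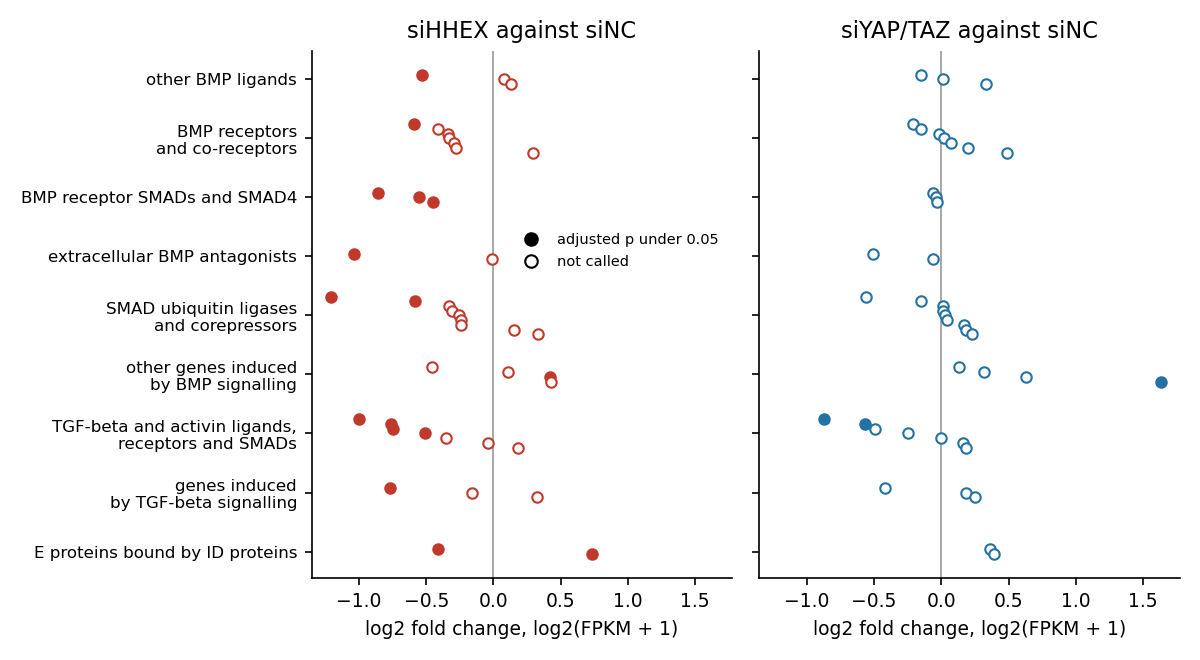
Log2 fold change on log2(FPKM + 1) of the 40 tested pathway genes outside the member list, by list, in siHHEX (left) and siYAP/TAZ (right). Filled points have an adjusted p under 0.05 from limma and open points do not. On the left 14 filled points lie below 0 and 2 above it, and on the right 2 lie below and 1, *TBX3*, above.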

How the data were processed

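RNA was sequenced in 8 HCT-116 libraries, and groups and replicate numbers came from the labels. The values deposited by the authors are in FPKM, with 1 value for each of 20030 rows in a library. These rows hold 20028 distinct gene names. The submitters' processing notes name Trimmomatic 0.36, HISAT2 2.0.5, Cufflinks 2.2.1 and HTSeq 0.9.1, and the paper names DESeq. The genome build and annotation of these values are not given in the sources used here. FPKM keep no counting error, so no interval from counts was computed, and the absolute depth of a library is unknown.

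The members and the gene lists were chosen with earlier results of these data known. A gene entered the test if 2 or more libraries held 1 FPKM or more. The test was limma (version 3.58.1, R 4.3.3) on log2(FPKM + 1), with 4 groups sharing 1 estimate of spread, whose prior followed the mean level, and Benjamini-Hochberg adjustment over the 10677 genes (threshold 0.05). The single siTEAD1/2/3/4 library was not tested. Named pathway genes were, from each list, at most 4 with the largest change among those past the threshold in any replicated comparison, and the genes most like *ID3* were the 5 highest by Pearson's r. Of the genes these rules name, 2 are not reported here.

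Coordinates and the GC content and length of canonical transcripts came from GENCODE release 44 of GRCh38, with 10349 tested genes matched by symbol. The correction removed natural spline trends (4 degrees of freedom each) on GC content and log length from each library. Other alternatives were pseudocounts of 0.1 and 0.01, no filter, fewer groups in the fit, median scaling, a block for the replicate number, each library left out in turn, and a fold change over 2 with an unadjusted p under 0.05. The tests were tried on simulated data. Other steps used Python 3.11.15 with pandas 2.3.3 and matplotlib 3.10.9. The other assays of the study were not used here.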

Additional observations from a re-analysis of the deposited data

How the results depend on the processing

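With 2 or 3 libraries per group, 1 library could decide a call. Of 240 tested values of single members under the alternatives, 195 kept their direction and side of the threshold, 21 no longer passed, 7 newly passed and 17 changed sign. Of 30 values of *ID3* against siNC, which had no test, 4 moved most. In siHHEX *ID3* was at 0.892 with the GC and length correction and at 0.962 with the replicate block added. In siYAP/TAZ it was at 1.885 without siYAP/TAZ 1 and at 1.099 without siYAP/TAZ 2. All that changed sign had not passed the test. Leaving out 1 library at a time gave 19 to 4839 called genes in siHHEX, 15 to 1317 in siYAP/TAZ and 1026 to 5161 between them, and 0 to 3, 1 to 2 and 0 to 2 called members. Over these libraries *BAMBI* went from -0.07 to 0.12 in siHHEX, *ID2* from -0.31 to 0.23 and *BAMBI* from -0.098 to 0.088 in siYAP/TAZ, and between the knockdowns *ID3* from -0.56 to 0.23 and *BAMBI* from -0.017 to 0.067.

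Of 10349 genes, the GC and length correction called 702 in siHHEX, 1182 in siYAP/TAZ and 919 between the knockdowns. It called 2 members in siYAP/TAZ and 1 between the knockdowns. Under it *BMP4* was at -0.038 and *BAMBI* at -0.128 in siHHEX, and *BAMBI* at -0.059 between the knockdowns. Combined with the replicate block it gave 151 genes in siHHEX, 931 in siYAP/TAZ and 196 between the knockdowns. It then called 1 member in siHHEX, 2 in siYAP/TAZ and 1 between the knockdowns. *BMP4* was at -0.135 and *BAMBI* at -0.082 in siHHEX, and *BAMBI* at -0.013 between the knockdowns. The correction without the block moved *ID1* in siTEAD1/2/3/4 to 1.15.

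Of the 10677 tested genes, median scaling called 678 in siYAP/TAZ and 3893 between the knockdowns. It called 2 members in siYAP/TAZ and 1 between the knockdowns, where *ID3* was at 0.008 and *BMP4* at 0.001. Without the filter 1907 and 320 genes were called in siHHEX and siYAP/TAZ, and 3367 genes and 1 member between the knockdowns. A fit of only the groups compared called 1759 genes and 3 members in siYAP/TAZ. The criterion of a fold over 2 with an unadjusted p under 0.05 gave 174, 168 and 162 genes in the same order, and no member in siHHEX or between the knockdowns.

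Same-numbered libraries did not deviate together, with correlations from -0.0704 to 0.0215. This cannot decide whether the numbers pair the samples. Each siHHEX and siYAP/TAZ replicate carried its own siRNA, and deviations from the means of so few libraries are tied to each other. The replicate block gave 2062 genes in siHHEX, 1031 in siYAP/TAZ and 2937 between them, and the same number of members as without it. The cause of these changes was not tested.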
